A study of Mus musculus with 2 samples.

Results

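The genes described here were 6 ligands of the epidermal growth factor family and the 4 ERBB receptor genes. The ligands were Areg (amphiregulin), Ereg (epiregulin), Epgn (epigen), Btc (betacellulin), Tgfa (transforming growth factor alpha) and Hbegf (heparin-binding EGF-like growth factor), and the receptors Egfr, Erbb2, Erbb3 and Erbb4. Chromatin accessibility was measured by scATAC-Seq, in which a transposase cuts open DNA in single nuclei, in primary mouse mammary organoids. Peaks that overlapped a gene body or lay within 20 kb of a transcription start in mm10 were assigned to the gene. The peaks of both libraries merged into 164 regions of the 10 genes out of 275294 in all, and 109 of them were peaks in both libraries, out of 174940 such shared regions. The others were peaks in a single library, 25 in DOX with a median of 181 counts and 30 in EtOH with a median of 169 counts, and were not compared. The gene totals below leave them out, among them a region of 1648 counts downstream of Epgn (+10.4 kb) and one of 1600 counts in an Hbegf exon (+3.37 kb), both in DOX, and one of 1069 counts in an Erbb2 intron (+3.40 kb) in EtOH.

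Both libraries came from C57BL/6J mice of the genotype shTRPS1.34 ki/+; CAG-rtTA3 tg/+. The shRNA against Trps1, which encodes a GATA-type zinc finger repressor, is switched on by doxycycline through rtTA3, which the ubiquitous CAG promoter drives. The study reports that in mice this driver did not switch the shRNA on in every mammary cell. The methods name no sorting of the organoid cells by shRNA expression, so some DOX nuclei may lack it. The group called DOX received doxycycline at 0.1 µg/mL for 7 days, and the group called EtOH received ethanol, the vehicle. Both were grown in Matrigel in medium that held Neuregulin, Noggin and R-spondin, each at 100 ng/mL, so a ligand of ERBB3 and ERBB4 was present in both groups. Each group was 1 library of pooled cells, from 3 mice by the methods and 4 by the design text, and the methods give an age of 12 to 20 weeks. A legend of the study names wild-type mice for this experiment, and the labels were followed here. With 1 library a group no test between the groups was possible, and doxycycline and the shRNA cannot be told apart. Intervals are 95% intervals on counts divided by 2, because both ends of a fragment are counted, and cover counting error only. The shRNA acts on RNA, so the knockdown itself was not measured, and the Trps1 promoters had 40.4 CPM in DOX and 25.3 CPM in EtOH over all nuclei, where CPM are counts per 1000000 counts in shared regions, and 28.7 and 22.6 CPM in epithelial nuclei. The log2 ratio was 0.68 (0.60 to 0.75) over all nuclei and 0.34 (0.25 to 0.43) in epithelial nuclei.

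EGF-family ligands are made as membrane proteins that sheddases release. They bind EGFR, and BTC, HBEGF and EREG also bind ERBB4. ERBB2 has no known ligand and signals as a partner of the others, and ERBB3 has little kinase activity of its own. In the mammary gland amphiregulin carries the estrogen signal for duct growth, ERBB2 is known from breast cancer and ERBB4 from the lactating gland. Open chromatin marks where proteins can bind and is not a measure of expression.

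The regions with the largest differences between the libraries lay outside the promoters, and 8 regions are shown by their central 300 bases, on the + strand of mm10 (GRCm38). The first 5 were at least 2-fold more accessible in DOX epithelial nuclei, the next 2 less accessible there, and the last was open in immune-like nuclei. Distances are from the gene's start along the direction of transcription. Capitals mark matches on either strand to the GATA motif (AGATAA or AGATAG, and TGATAA or TGATAG), the FOX motif (TATTTAC or TGTTTAC) and the ETS motif (AGGAAGT or CGGAAGT). The Tgfa region at -12.5 kb held 2 GATA matches and the Erbb4 region at -3.04 kb held no match to any motif searched.
Tgfa -12.5 kb, chr6:86182601-86182900: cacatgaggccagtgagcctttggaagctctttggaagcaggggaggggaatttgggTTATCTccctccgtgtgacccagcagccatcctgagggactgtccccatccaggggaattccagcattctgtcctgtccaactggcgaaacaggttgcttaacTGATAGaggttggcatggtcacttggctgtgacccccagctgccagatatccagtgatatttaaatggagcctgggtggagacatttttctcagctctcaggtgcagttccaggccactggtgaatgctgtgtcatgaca
Egfr -10.2 kb, chr11:16741819-16742118: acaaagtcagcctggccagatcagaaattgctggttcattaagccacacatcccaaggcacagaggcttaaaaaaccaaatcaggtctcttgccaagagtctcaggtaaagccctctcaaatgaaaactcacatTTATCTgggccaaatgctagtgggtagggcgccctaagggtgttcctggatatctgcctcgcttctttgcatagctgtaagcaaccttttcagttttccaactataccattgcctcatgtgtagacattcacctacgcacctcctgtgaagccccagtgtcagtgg
Egfr -12.8 kb, chr11:16739233-16739532: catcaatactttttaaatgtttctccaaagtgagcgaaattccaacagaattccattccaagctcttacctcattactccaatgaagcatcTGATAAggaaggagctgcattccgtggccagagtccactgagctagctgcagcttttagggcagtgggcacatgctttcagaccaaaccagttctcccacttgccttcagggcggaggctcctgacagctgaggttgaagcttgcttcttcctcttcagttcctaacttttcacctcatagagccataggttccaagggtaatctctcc
Erbb4 +1058 kb, chr1:68049850-68050149: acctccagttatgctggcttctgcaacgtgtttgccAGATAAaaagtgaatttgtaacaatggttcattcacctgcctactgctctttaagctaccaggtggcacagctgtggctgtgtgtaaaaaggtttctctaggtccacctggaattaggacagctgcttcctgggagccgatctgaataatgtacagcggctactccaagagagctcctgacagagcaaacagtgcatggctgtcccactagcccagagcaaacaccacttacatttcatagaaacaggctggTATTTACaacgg
Erbb4 -3.04 kb, chr1:69110950-69111249: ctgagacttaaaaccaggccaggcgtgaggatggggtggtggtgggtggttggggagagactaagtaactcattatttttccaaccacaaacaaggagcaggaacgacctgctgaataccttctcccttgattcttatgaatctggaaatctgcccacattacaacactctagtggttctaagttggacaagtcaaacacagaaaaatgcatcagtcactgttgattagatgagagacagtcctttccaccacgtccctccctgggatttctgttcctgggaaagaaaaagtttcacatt
Egfr +122 kb, chr11:16874351-16874650: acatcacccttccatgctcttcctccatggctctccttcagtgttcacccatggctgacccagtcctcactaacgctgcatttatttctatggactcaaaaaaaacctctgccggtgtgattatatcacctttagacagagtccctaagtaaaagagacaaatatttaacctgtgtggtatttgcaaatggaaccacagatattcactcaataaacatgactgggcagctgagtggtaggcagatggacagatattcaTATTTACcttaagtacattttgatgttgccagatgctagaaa
Erbb3 -6.01 kb, chr10:128595514-128595813: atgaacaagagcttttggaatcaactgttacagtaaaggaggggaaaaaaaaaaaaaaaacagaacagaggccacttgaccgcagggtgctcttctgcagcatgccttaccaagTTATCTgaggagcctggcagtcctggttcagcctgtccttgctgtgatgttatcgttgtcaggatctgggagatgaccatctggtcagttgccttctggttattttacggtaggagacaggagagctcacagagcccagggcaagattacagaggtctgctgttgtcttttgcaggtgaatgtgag
Epgn -4.20 kb, chr5:91023117-91023416: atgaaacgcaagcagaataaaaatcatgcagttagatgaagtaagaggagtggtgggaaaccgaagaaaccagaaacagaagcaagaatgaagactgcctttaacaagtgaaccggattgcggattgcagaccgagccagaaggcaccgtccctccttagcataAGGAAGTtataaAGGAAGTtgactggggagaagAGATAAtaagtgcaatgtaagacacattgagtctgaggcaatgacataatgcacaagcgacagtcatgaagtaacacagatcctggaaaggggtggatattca

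The libraries held 3071 nuclei in DOX and 3104 in EtOH, with medians of 75195 and 66701 counts per nucleus, and 23 barcodes occurred in both. Clusters were formed without the regions of the 10 genes and named from marker genes. Immune-like nuclei had all 7 myeloid markers at least 2-fold above and all 8 epithelial markers at least 2-fold below the epithelial nuclei. Of 7 endothelial markers, 2 were also at least 2-fold above (Cdh5, log2 ratio 3.76, and Kdr, 2.15) and 3 at least 2-fold below. Immune-like nuclei were 41.8% of DOX nuclei and 9.12% of EtOH nuclei. Among 1741 DOX and 2788 EtOH epithelial nuclei, a luminal progenitor-like cluster came almost wholly from EtOH (1641 nuclei, against 59) and an unnamed epithelial cluster from DOX (1387, against 9), so these clusters may be the libraries and not cell types. Hormone-sensing luminal-like nuclei (217 in DOX, 1021 in EtOH) and basal-like nuclei (78 and 117, with fibroblast markers also high) held both libraries. Against the other nuclei, the basal-like cluster had a median log2 fold of 1.21 for basal, 1.05 for fibroblast and -0.25 for epithelial markers. It was counted as epithelial, but its epithelial identity is uncertain.

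Over all nuclei, 9 of the 10 genes were less accessible in DOX when their shared regions were summed, and Ereg was more accessible. Their median log2 ratio was -0.22. Summed by the same rule, 42.7% of all protein-coding genes had a ratio below 0, and their median was 0.04. Across the shared regions the median was -0.13, and with that set to 0 the members were 7 lower and 3 higher, with Epgn and Hbegf turned. In epithelial nuclei 8 of the 10 had a ratio above 0, with 5 intervals wholly above it and 2 wholly below it, where 46.5% of all genes were above 0. None of the 10 reached 2-fold in either set. Of all genes 2.41% were at least 2-fold higher and 1.35% lower over all nuclei, and 0.777% and 0.503% in epithelial nuclei. A sum over all nuclei cannot tell fewer nuclei of a type from less open DNA in each. The summed regions of 9 of the 10 genes were more open in epithelial than in immune-like nuclei, as were those of 42.7% of all genes. The median ratio of immune-like over epithelial nuclei was -1.35 for the members and 0.13 for all genes. At least 2-fold lower in immune-like nuclei were 7 of the 10 and 18.9% of all genes, and 0 of the 10 were higher, against 8.58%. Epithelial nuclei were 56.7% of DOX and 89.8% of EtOH nuclei.

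**Figure D1:**
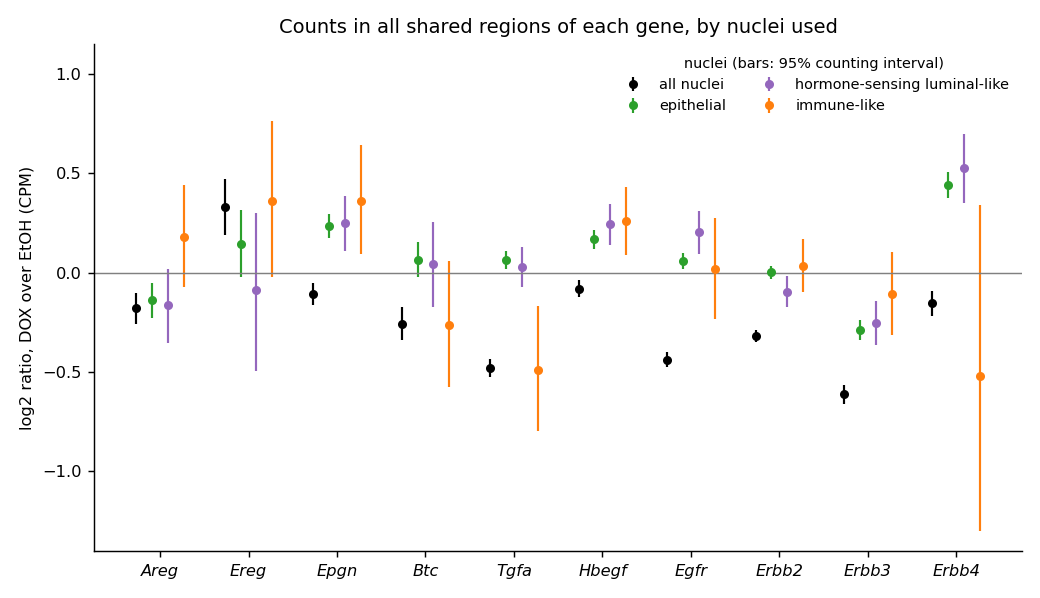
Log2 ratio of DOX over EtOH of the counts in all shared regions of each of the 10 genes, by set of nuclei, with 1 library per group. Bars are 95% counting intervals. Ratios ran from -0.61 for Erbb3 to 0.33 for Ereg over all nuclei, and from -0.29 for Erbb3 to 0.44 for Erbb4 in epithelial nuclei.

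Areg, Ereg, Epgn and Btc lie close together on chromosome 5. Areg (chr5:91139599-91148432) had 25.2 CPM (24.2 to 26.1) with DOX, against 28.5 CPM (27.5 to 29.6) with EtOH. Its log2 ratio was -0.18 (-0.26 to -0.10) over all nuclei and -0.14 (-0.23 to -0.05) in epithelial nuclei, so it was lower in DOX in both sums. Within each class the interval held 0, with -0.16 (-0.35 to 0.02) in hormone-sensing luminal-like and -0.06 (-0.51 to 0.39) in basal-like nuclei. The ratio was 0.40 (-0.01 to 0.79) in luminal progenitor-like and 0.18 (-0.07 to 0.44) in immune-like nuclei. Its promoter did not separate the libraries, with 17.2 CPM in DOX and 17.8 CPM in EtOH. The intronic region at +5.63 kb, with a GATA and an AP-1 (TGANTCA) match, had the lowest ratio of the gene, -0.76 (-0.99 to -0.54) over all nuclei and -0.44 (-0.69 to -0.21) in epithelial nuclei.

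Ereg (chr5:91074622-91093646) had 9.27 CPM (8.70 to 9.87) with DOX, against 7.38 CPM (6.86 to 7.93) with EtOH, a ratio of 0.33 (0.19 to 0.47). It was also the single locus more open in immune-like than in epithelial nuclei, by 0.55 (0.40 to 0.70), and 48.1% of its DOX counts came from immune-like nuclei. Within epithelial nuclei its ratio was 0.14 (-0.02 to 0.31) and within immune-like nuclei 0.36 (-0.02 to 0.76), so the libraries did not separate in either class.

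Epgn (chr5:91027464-91035215) had 46.5 CPM in DOX and 50.1 CPM in EtOH. Its ratio was -0.11 (-0.16 to -0.05) over all nuclei and 0.24 (0.18 to 0.30) in epithelial nuclei, so the direction differed between them. Btc (chr5:91357261-91402994) had 21.6 CPM in DOX and 25.8 CPM in EtOH. Its ratio was -0.26 (-0.34 to -0.17) over all nuclei and 0.06 (-0.02 to 0.15) in epithelial nuclei, where the libraries did not separate.

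Tgfa (chr6:86195223-86275719) had 71.4 CPM (69.8 to 73.01) with DOX, against 99.6 CPM (97.6 to 102) with EtOH. Its ratio was -0.48 (-0.52 to -0.44) over all nuclei and 0.06 (0.02 to 0.11) in epithelial nuclei. Hbegf (chr18:36504927-36515805) had 81.9 CPM in DOX and 86.6 CPM in EtOH, with ratios of -0.08 (-0.12 to -0.04) and 0.17 (0.12 to 0.21). Both ligand genes were thus lower in DOX over all nuclei and slightly higher among epithelial nuclei, where the Tgfa ratio was -0.02 (-0.07 to 0.02) without its region at +57.3 kb. Hbegf was also higher in DOX among hormone-sensing luminal-like nuclei, by 0.24 (0.14 to 0.34), and among immune-like nuclei, by 0.26 (0.09 to 0.43). These totals include regions at -6.41, -9.89 and -14.2 kb that were nearest to the neighbouring gene Slc4a9, the last at its promoter. The Hbegf promoter alone had 0.17 (0.04 to 0.31) in hormone-sensing luminal-like nuclei. In immune-like nuclei it had 0.24 (-0.01 to 0.51), an interval that held 0.

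Of the receptors, Egfr (chr11:16752203-16918158) had 94.6 CPM (92.8 to 96.5) with DOX, against 128 CPM (126 to 131) with EtOH. Its ratio was -0.44 (-0.48 to -0.40) over all nuclei and 0.06 (0.02 to 0.10) in epithelial nuclei. Erbb2 (chr11:98412470-98437716) had 148 CPM in DOX and 184 CPM in EtOH, with ratios of -0.32 (-0.35 to -0.29) and 0.00 (-0.03 to 0.03), and its window also holds promoters of its neighbours Pgap3, Mien1 and Grb7. Erbb4, the longest of the genes (chr1:68032186-69108059), had 36.00 CPM in DOX and 40.1 CPM in EtOH, with ratios of -0.16 (-0.22 to -0.09) and 0.44 (0.37 to 0.50). Summed over its regions, Erbb4 was higher in DOX within hormone-sensing luminal-like nuclei too, by 0.52 (0.35 to 0.69), and within basal-like nuclei, by 0.45 (0.19 to 0.71). The Erbb4 promoter alone had 0.07 (-0.19 to 0.32) and 0.24 (-0.26 to 0.75) in these classes, so the libraries did not separate there.

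Erbb3 (chr10:128567523-128589652), a receptor for the neuregulin in the medium, had 56.97 CPM (55.5 to 58.4) with DOX, against 87.1 CPM (85.2 to 88.9) with EtOH, a ratio of -0.61 (-0.66 to -0.56). It was lower in DOX also in epithelial nuclei, with a ratio of -0.29 (-0.34 to -0.24), and in hormone-sensing luminal-like nuclei, with -0.25 (-0.36 to -0.14). In luminal progenitor-like nuclei the ratio was -0.22 (-0.49 to 0.04) and in basal-like nuclei -0.24 (-0.54 to 0.06), both with intervals that held 0. The Erbb3 promoter had a ratio of -0.07 (-0.16 to 0.01) in epithelial nuclei, so the difference lay mainly in its other regions.

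Promoters were the shared regions within 1 kb of a start. Over all nuclei all 10 had a ratio below 0, 8 with intervals wholly below it and the Areg and Ereg intervals holding 0. Of all promoters 34% had a ratio below 0. The median ratio of the members was -0.36, against 0.09 for all promoters. In epithelial nuclei 7 of the 10 were above 0, 4 of them with intervals wholly above it, where 55.3% of all promoters were above 0. The median was 0.12, against 0.01 for all promoters. Over all nuclei 0 of the 10 genes were at least 2-fold higher or lower at the promoter, where 3.43% of all protein-coding promoters were at least 2-fold higher and 1.67% lower. In epithelial nuclei again 0 of the 10 passed, where 0.776% were higher and 0.819% lower, and the ratios ran from -0.11 for Areg to 0.21 for Ereg. The lowest promoter ratio over all nuclei was that of Tgfa, with 14.6 CPM in DOX and 20.4 CPM in EtOH, -0.48 (-0.58 to -0.39), and in epithelial nuclei it was 0.09 (-0.01 to 0.19). The Erbb4 promoter had 15.7 and 21.4 CPM, -0.45 (-0.54 to -0.36), and 0.14 (0.05 to 0.24) in epithelial nuclei.

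Levels of different genes were compared per kb of promoter region, over both libraries. In epithelial nuclei the Erbb3 promoter had the highest value, 34.03 CPM per kb (33.03 to 35.04), followed by Btc at 30.95 CPM per kb (29.98 to 31.9). Hbegf at 27.5, Erbb2 at 26.7 and Tgfa at 26.5 CPM per kb came next, with overlapping intervals. Areg had 18.97 and Erbb4 12.9 CPM per kb, and Epgn at 10.2 and Egfr at 9.77 CPM per kb overlapped. The Egfr value is an average over 3 promoter regions, of which 2 at internal starts were weak. The Hbegf and Erbb4 values are averages over 2 promoter regions each, so the order is not one of single regions. Summed over its promoter regions Hbegf had 51.5 CPM in epithelial nuclei, against 28.3 CPM for Erbb3. Ereg was the least open, at 3.29 CPM per kb.

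Immune-like nuclei gave another order. Areg had the highest value per kb there, 19.5 CPM per kb (18.2 to 20.8). Next came Btc at 14.1, Erbb3 at 13.1 and Hbegf at 12.2 CPM per kb, whose intervals overlap from one to the next. The Hbegf value averages 2 promoter regions. The one at +1.63 kb had a ratio of immune-like over epithelial nuclei of -3.36, against -0.59 at the start. Summed over its promoter regions Hbegf had 22.9 CPM in immune-like nuclei, against 17.8 CPM for Areg. Against epithelial nuclei, 8 of the 10 promoters were at least 2-fold lower and 0 higher, where 19.1% of all promoters were lower and 8.07% higher. Erbb4 had the lowest ratio of immune-like over epithelial nuclei, -5.19 (-5.74 to -4.69), followed by Epgn with -4.18 (-4.83 to -3.60), Tgfa with -4.09 (-4.46 to -3.73) and Erbb2 with -2.59 (-2.81 to -2.38). The Areg promoter did not separate the classes, with 0.04 (-0.07 to 0.15), and Ereg was lower by less than 2-fold, with -0.68 (-1.01 to -0.36).

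The share of nuclei with a promoter count gave the same contrast after each nucleus was thinned to 10000 counts. For Erbb4, 19.1% of DOX and 18.3% of EtOH epithelial nuclei had a count, against 0.399% and 0.364% of immune-like nuclei. For Areg the shares were 13.3% and 14.8% in epithelial nuclei and, in immune-like nuclei, 15.1% in DOX and 44 of 275 nuclei in EtOH. Without thinning, the Erbb4 shares were 53.99% and 48.03% against 1.71% and 1.77%, at median depths of 74208 and 65908.5 counts in epithelial and 68424 and 52104 counts in immune-like nuclei. Thinning left out 91 DOX and 107 EtOH epithelial nuclei and 31 and 8 immune-like nuclei that were shallower.

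**Figure D2:**
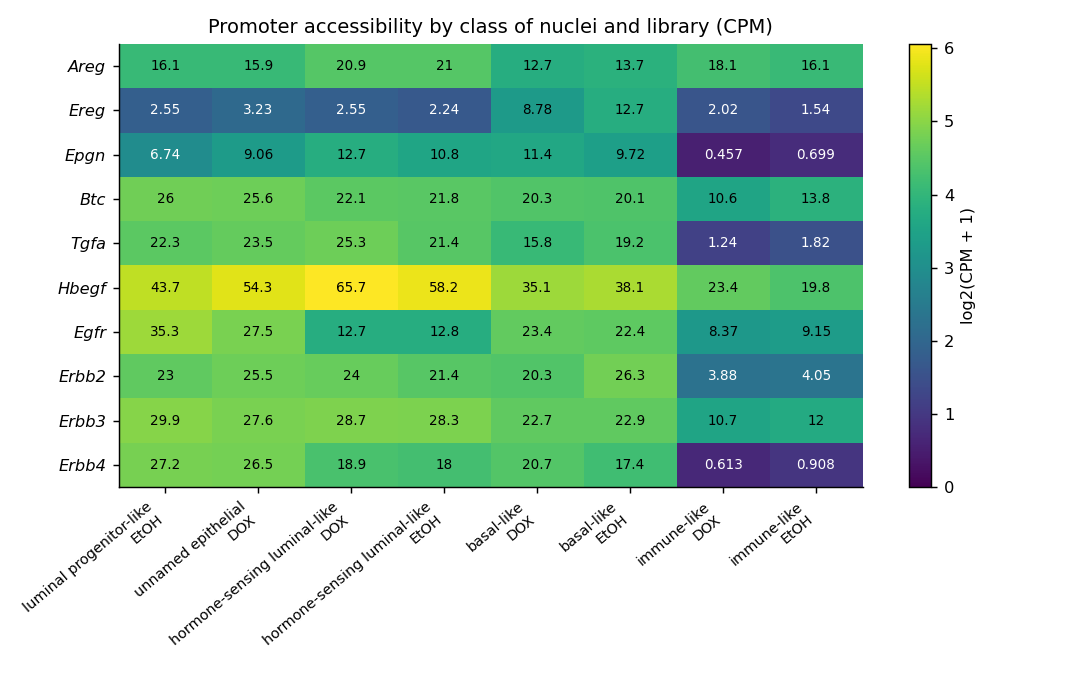
Promoter CPM of the 10 genes (rows) in each class of nuclei and library (columns), coloured by log2(CPM + 1), with the CPM written in each cell. Erbb4, Tgfa and Epgn were below 2 CPM in immune-like nuclei of both libraries, where Areg had 18.1 CPM in DOX and 16.1 CPM in EtOH.

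Within the epithelium, Egfr and Ereg varied most in their promoter levels between classes. The Egfr promoter had 35.3 CPM in luminal progenitor-like nuclei of EtOH and 27.5 CPM in the unnamed epithelial nuclei of DOX. Basal-like nuclei had 23.4 CPM in DOX and 22.4 CPM in EtOH, and hormone-sensing luminal-like nuclei 12.7 and 12.79 CPM. Hormone-sensing luminal-like nuclei were thus the low epithelial class in both libraries. The Ereg promoter had 8.78 CPM in DOX and 12.7 CPM in EtOH basal-like nuclei, against 2.55 and 2.24 CPM in hormone-sensing luminal-like nuclei. That contrast rests on the basal-like cluster, whose fibroblast markers were high and epithelial markers low, so it may not be one within the epithelium. Among classes with at least 50 nuclei in a library, Hbegf was highest in hormone-sensing luminal-like nuclei, with 65.7 and 58.2 CPM, and had 35.1 and 38.1 CPM in basal-like nuclei.

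Promoter levels were also set beside those of all genes by Pearson's r of log2(CPM + 1) over 13 groups of cluster and library with at least 50 nuclei. These groups share their library and depth, and the value is a description. They include immune-like groups, and 8 of the 10 promoters were at least 2-fold lower in immune-like than in epithelial nuclei. The value of r does not separate that split from variation within the epithelium. The most alike genes were Abcb6 for Areg (r = 0.916), Plch2 for Ereg (0.959), P4ha3 for Epgn (0.991), Tmem246 for Btc (0.980), Nbea for Tgfa (0.997), Svil for Hbegf (0.986), Ankrd53 for Egfr (0.970), Trib2 for Erbb2 (0.997), Rab17 for Erbb3 (0.994) and Eps8l1 for Erbb4 (0.992). Among the members, Tgfa and Erbb2 were most alike (0.990) and Areg and Ereg least (-0.57).

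Region by region, all 109 shared regions passed the minimum of 100 counts. Over all nuclei 6 were at least 2-fold higher in DOX and 12 lower (11.01%), where 13% of all shared regions were higher and 13.4% lower, so neither share was above the background. Assigned to the nearest start instead, 26 of 175 regions were lower (14.9%), slightly above it. The median ratio of the members was -0.35, against -0.13 for all regions. In epithelial nuclei 7 of 108 were higher and 7 lower (6.48% each), where 5.43% of all regions were higher and 8.57% lower, near the background both ways. The median was -0.03, against -0.06 for all regions. The higher regions belonged to Tgfa (1), Egfr (3) and Erbb4 (3), and the lower ones to Tgfa (3), Erbb3 (2), Egfr (1) and Erbb2 (1). These regions were named after their values were seen, apart from those with the highest or lowest ratio of their gene.

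**Figure D3:**
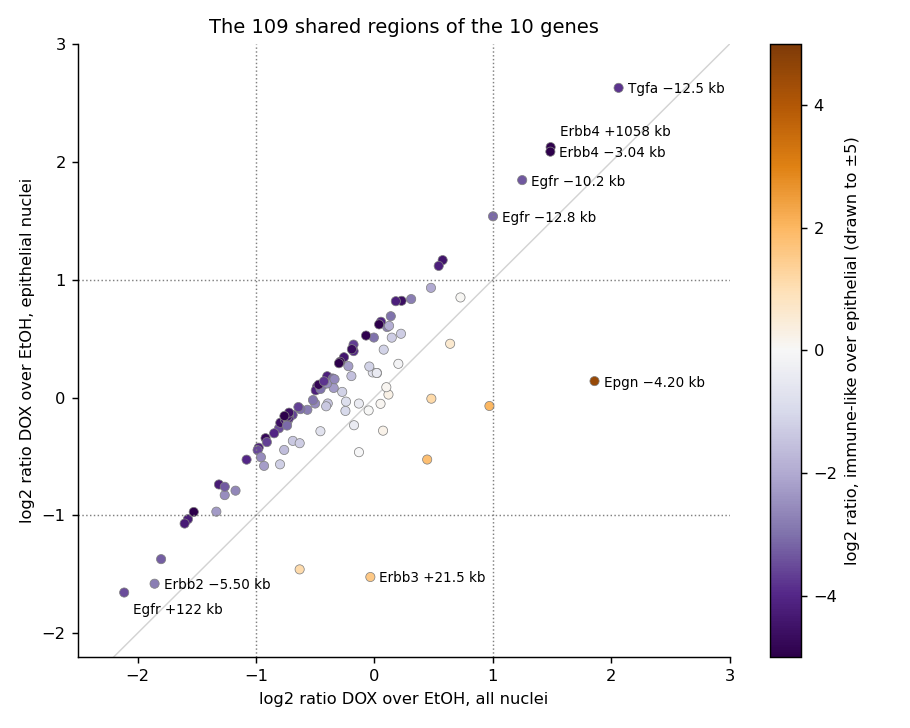
Log2 ratio of DOX over EtOH of the 109 shared regions in all nuclei (horizontal axis) and in epithelial nuclei (vertical axis), each point a region coloured by its log2 ratio of immune-like over epithelial nuclei. Dotted lines mark 2-fold and the grey line equality. Most regions lie above the line, and the Epgn region at -4.20 kb lies far to its right (1.86 against 0.14).

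The Tgfa region at -12.5 kb had the highest ratio of the 109. It had 4.10 CPM in DOX and 0.981 CPM in EtOH over all nuclei, a ratio of 2.06 (1.74 to 2.39). In epithelial nuclei it had 6.52 CPM (5.91 to 7.17) with DOX, against 1.05 CPM (0.856 to 1.29) with EtOH, a ratio of 2.63 (2.31 to 2.96). Within hormone-sensing luminal-like nuclei, a class that both libraries held, it had 5.39 and 1.60 CPM, 1.75 (1.16 to 2.33), so it was higher in DOX there too. The unnamed epithelial nuclei of DOX had 7.15 CPM and the luminal progenitor-like nuclei of EtOH 0.721 CPM.

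Of the 5 shared regions upstream of the Egfr promoter, 2 neighbouring ones were at least 2-fold higher in DOX epithelial nuclei and those on either side were lower. The region at -14.6 kb had a ratio of -0.83 (-1.15 to -0.51) in epithelial nuclei and -1.26 (-1.57 to -0.97) over all nuclei, and the region at -7.32 kb had -0.34 (-0.55 to -0.14) and -0.92 (-1.12 to -0.72). The farthest, at -16.7 kb, had 0.21 (-0.19 to 0.60) in epithelial nuclei, an interval that held 0. The region at -10.2 kb had 5.18 CPM (4.64 to 5.77) with DOX, against 1.44 CPM (1.21 to 1.71) with EtOH, in epithelial nuclei, a ratio of 1.84 (1.55 to 2.15), and 1.89 (0.84 to 2.92) in hormone-sensing luminal-like nuclei. The region at -12.8 kb had 3.78 and 1.30 CPM, 1.54 (1.22 to 1.86), but 0.39 (-0.50 to 1.21) in hormone-sensing luminal-like nuclei, where the libraries did not separate. The intronic region at +48.5 kb had 12.1 and 5.41 CPM, 1.17 (1.002 to 1.33), and 1.21 (0.86 to 1.56) in hormone-sensing luminal-like nuclei. In basal-like nuclei its ratio was -0.37 (-1.11 to 0.33), so the libraries did not separate there.

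In Erbb4, the intronic region at +1058 kb, near the end of the gene, had 6.85 CPM (6.23 to 7.52) with DOX, against 1.57 CPM (1.33 to 1.85) with EtOH, in epithelial nuclei, a ratio of 2.12 (1.85 to 2.40). It was higher in DOX also in hormone-sensing luminal-like nuclei, by 1.24 (0.23 to 2.20). The region at -3.04 kb had 3.29 and 0.775 CPM in epithelial nuclei, 2.09 (1.69 to 2.49), with 2.29 (1.27 to 3.32) in hormone-sensing luminal-like and 1.11 (0.36 to 1.87) in basal-like nuclei. The intronic region at +606 kb was weak, with 1.097 and 0.506 CPM, 1.12 (0.56 to 1.68). Both stronger regions were most open in basal-like nuclei, where the region at -3.04 kb had 13.1 CPM in DOX and 6.07 CPM in EtOH.

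Of the 7 regions that were higher in DOX epithelial nuclei, 5 held a GATA match in the central 300 bases, as did 66.7% of all regions that were higher there and 34.5% of all shared regions. Of the 7 lower regions 2 held one, and 32.3% of all lower regions did. Over the 109 regions the share was 38.5%. AP-1 matches were in 25 of the 109 (20.9% of all shared regions), ETS in 15 (15.9%), FOX in 13 (9.19%), TEAD (GGAATGT) in 13 (6.78%) and the progesterone receptor motif in 0 (0.638%). A match describes the letters and is not a bound site.

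**Figure D4:**
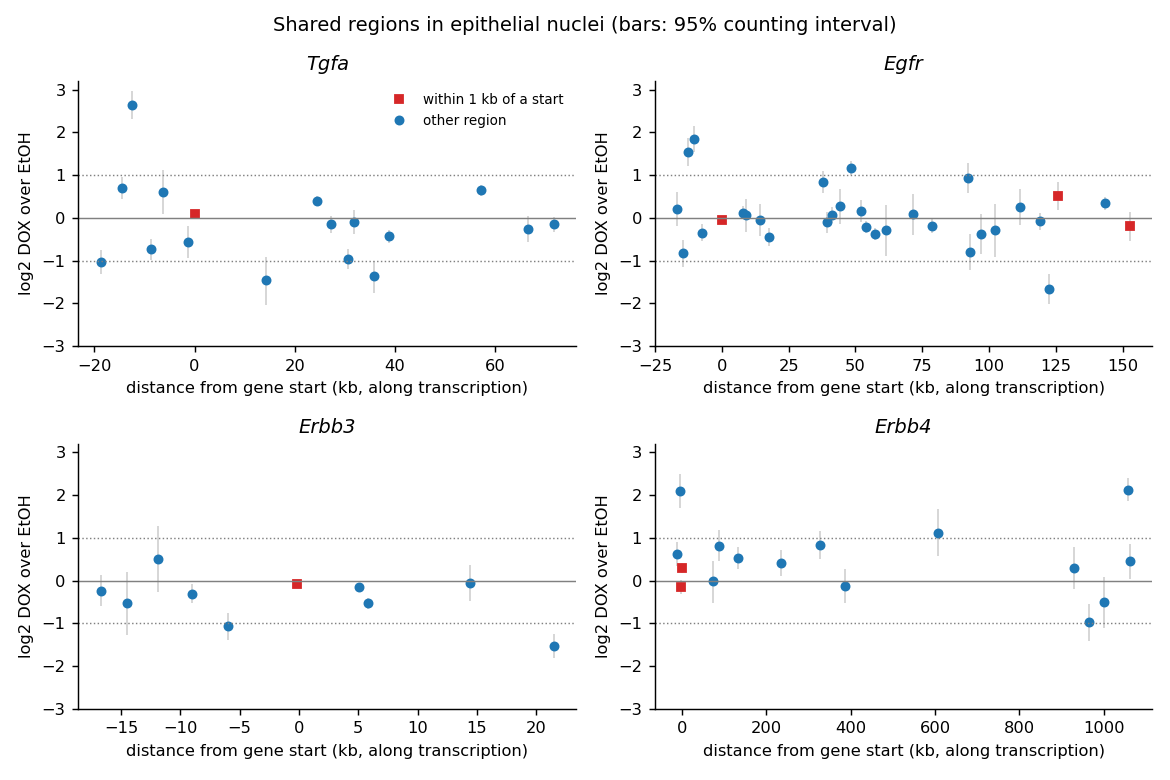
Log2 ratio of DOX over EtOH in epithelial nuclei (vertical axis) of each shared region of Tgfa, Egfr, Erbb3 and Erbb4 by its distance from the gene's start in kb (horizontal axis). Squares are regions within 1 kb of a start, circles other regions, bars 95% counting intervals, and dotted lines mark 2-fold. The squares lie within 2-fold, while single distal regions reach 2.63 in Tgfa and -1.65 in Egfr.

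Within the epithelium, most regions that were lower in DOX were open mainly in hormone-sensing luminal-like nuclei, a class that was 12.5% of DOX and 36.6% of EtOH epithelial nuclei. The Egfr region at +122 kb had 1.28 CPM in DOX and 4.04 CPM in EtOH epithelial nuclei, -1.65 (-2.02 to -1.31). In hormone-sensing luminal-like nuclei it had 7.07 and 9.64 CPM, -0.45 (-0.86 to -0.05), and in luminal progenitor-like nuclei of EtOH 0.370 CPM. The ratio was thus closer to 0 within the class than over the epithelium, with an interval still wholly below 0. The lower regions were chosen by their ratio over the epithelium, and that choice alone can bring a ratio closer to 0 in a class. Why the ratios differed was not tested.

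The same held for the next 3 regions, which were also lower in DOX within the class. The Erbb3 region at -6.01 kb had -1.07 (-1.38 to -0.77) in epithelial and -0.45 (-0.89 to -0.03) in hormone-sensing luminal-like nuclei, where it had 6.37 and 8.69 CPM, against 0.780 CPM in luminal progenitor-like nuclei of EtOH. The Tgfa region at +35.9 kb had -1.37 (-1.76 to -0.999) and -0.62 (-1.15 to -0.13). The exonic Erbb3 region at +21.5 kb, nearest to the start of the neighbouring gene Pa2g4, had -1.52 (-1.81 to -1.24) and -0.54 (-0.90 to -0.20). That region was also at least 2-fold more open in immune-like than in epithelial nuclei, by 1.59 (1.43 to 1.75), and 80.3% of its DOX counts came from immune-like nuclei. Over all nuclei its ratio was -0.03 (-0.19 to 0.13), so the libraries did not separate there. The Erbb2 region at -5.50 kb, with -1.58 (-2.10 to -1.09) in epithelial nuclei, stayed past 2-fold within the class, with 1.85 CPM in DOX and 3.90 CPM in EtOH, -1.07 (-1.92 to -0.33).

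The remaining lower regions were in Tgfa. The exonic region at +14.3 kb had -1.46 (-2.03 to -0.92) in epithelial, -1.49 (-2.91 to -0.34) in hormone-sensing luminal-like and -1.26 (-1.84 to -0.66) in immune-like nuclei, so it was lower in DOX in each. It too was more open in immune-like than in epithelial nuclei, by 1.13, and 70.5% of its DOX counts came from immune-like nuclei. The region at -18.7 kb had -1.03 (-1.32 to -0.75) in epithelial and -0.32 (-0.87 to 0.20) in hormone-sensing luminal-like nuclei, so its ratio too was closer to 0 within the class. Tgfa thus held the region with the highest ratio and 3 of the 7 lower ones, while its promoter and its total were near 0 in epithelial nuclei.

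**Figure D5:**
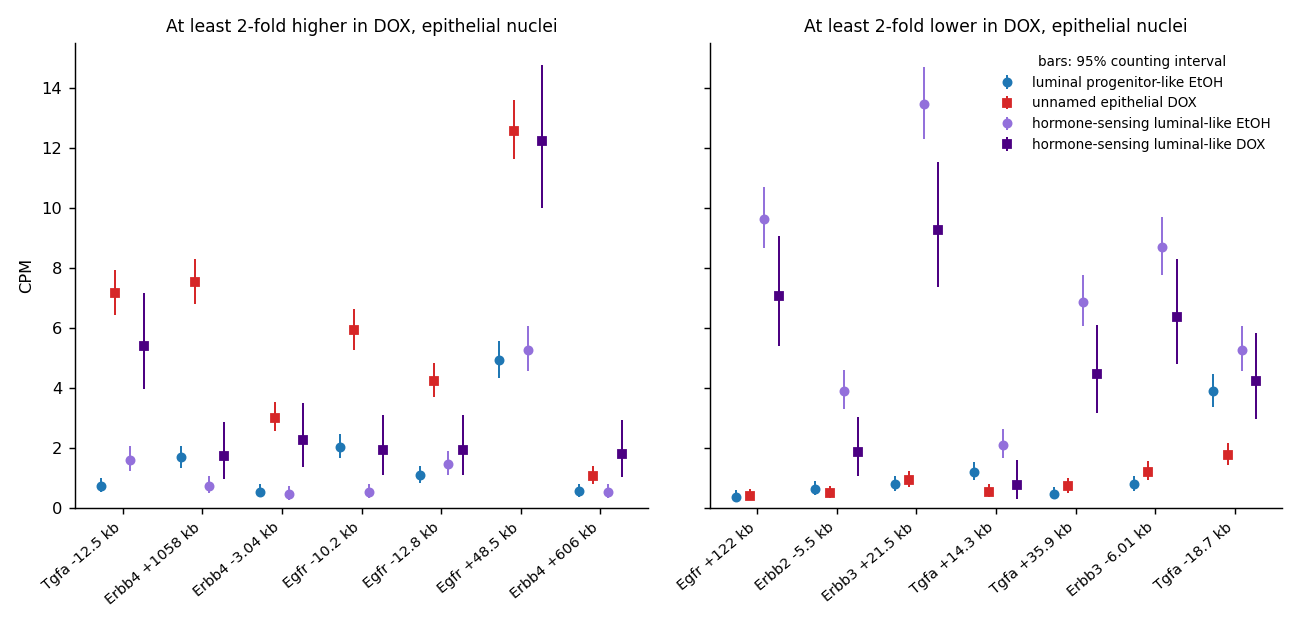
CPM (vertical axis) of the regions at least 2-fold higher (left) or lower (right) in DOX epithelial nuclei, in luminal progenitor-like nuclei of EtOH, unnamed epithelial nuclei of DOX and hormone-sensing luminal-like nuclei of both libraries, with 95% counting intervals. Of the classes plotted, most lower regions were most open in hormone-sensing luminal-like nuclei, such as Egfr +122 kb with 9.64 CPM in EtOH and 7.07 CPM in DOX.

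Within hormone-sensing luminal-like nuclei, a set chosen after the values were seen, 74 of the 109 regions reached 100 counts, and 5 were at least 2-fold higher and 4 lower in DOX, where 4.51% of all regions were higher and 5.04% lower. Beside Tgfa -12.5 kb and Egfr +48.5 kb, the higher ones were Tgfa +57.3 kb, 1.005 (0.64 to 1.36), Erbb4 +235 kb, 1.52 (0.63 to 2.37), and Erbb4 -10.7 kb, 1.19 (0.51 to 1.83). Beside Tgfa +14.3 kb and Erbb2 -5.50 kb, the lower ones were Tgfa +30.6 kb, -1.28 (-1.82 to -0.79), and Erbb2 -7.51 kb, -1.01 (-1.43 to -0.62).

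Between classes, 6 of the 109 regions were at least 2-fold higher in immune-like than in epithelial nuclei and 87 lower (79.8%), where 17.9% of all shared regions were higher and 53.4% lower. The median ratio of the members was -2.97, against -1.32 for all regions. All 16 Erbb4 regions and 28 of the 31 Egfr regions were lower in immune-like nuclei. The 6 higher regions were in Ereg, Epgn, Tgfa and Hbegf (1 each) and Erbb3 (2).

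The Epgn region at -4.20 kb had the highest ratio of immune-like over epithelial nuclei, 4.53. It had 5.38 CPM in DOX and 5.66 CPM in EtOH immune-like nuclei and 0.249 and 0.226 CPM in epithelial nuclei, and the libraries did not separate in either class. Over all nuclei it had 2.26 CPM in DOX and 0.623 CPM in EtOH, 1.86 (1.45 to 2.28), and 93.3% of its DOX counts came from immune-like nuclei. The intronic Ereg region at +8.59 kb had 7.76 and 6.64 CPM in immune-like nuclei, against 3.40 and 3.42 CPM in epithelial nuclei.

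Within immune-like nuclei, 34 of the 109 regions reached 100 counts, and 2 were at least 2-fold higher in DOX and 1 lower, where 5.6% of all regions were higher and 0.744% lower. The higher ones were the Ereg region at +11.1 kb, 1.19 (-0.10 to 2.86), and the Epgn region at +7.92 kb, which had 140 counts in DOX and 1 in EtOH, 4.59 (1.32 to 14.6). The lower one was the Tgfa region at +14.3 kb.

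The wider pathway was read at the promoters of 37 further genes: 5 other ligands, 4 sheddases and iRhoms, 6 adaptors, 10 inhibitors and 12 feedback and target genes. None was at least 2-fold higher or lower in DOX over all nuclei or in epithelial nuclei. Such promoters are few: 3.43% of all promoters were higher and 1.67% lower over all nuclei, and 0.776% and 0.819% in epithelial nuclei. The median ratio of the 37 genes over all nuclei was 0.11, against 0.09 for all promoters. In epithelial nuclei it was 0.07, against 0.01. The highest was Gab2, an adaptor, with 36.2 CPM in DOX and 23.8 CPM in EtOH, 0.60 (0.53 to 0.68), and -0.02 (-0.12 to 0.08) in epithelial nuclei. The lowest was Grb7, an adaptor encoded beside Erbb2, with 30.8 and 46.3 CPM, -0.59 (-0.65 to -0.52), and -0.02 (-0.09 to 0.04) in epithelial nuclei.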

How the data were processed

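Chromatin accessibility was measured by scATAC-Seq in 1 DOX and 1 EtOH library. The authors deposited counts of transposase cuts per peak and nucleus, with peaks called in each library. The file headers name Cell Ranger ATAC 2.0.0, while the methods name another version. Overlapping peaks of the libraries were merged into regions and counts summed. Peaks off the assembled chromosomes held 0.135% of DOX and 0.146% of EtOH counts and were left out. Gene models were those of GENCODE M21. Levels were scaled to the total in shared regions. All deposited nuclei were used, doublets were scored but kept, and nuclei were clustered by latent semantic indexing (components 2 to 30, 15 neighbours, Leiden resolution 0.5, leidenalg 0.10.2). A cluster of low depth (45 DOX and 33 EtOH nuclei) stayed unnamed. Intervals were exact Poisson for CPM, exact conditional binomial for ratios and Clopper-Pearson for shares (scipy 1.17.1).

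Regions with at least 100 counts were counted as higher or lower at 2-fold, and no test was made. The rule for named regions took for each gene its promoter and, among regions with at least 200 counts, the highest and lowest ratio of DOX over EtOH and the highest of immune-like over epithelial nuclei. The members and lists were chosen with earlier results of these data known. Sequences came from RefSeq's GRCm38. On simulated data for DOX over EtOH in all nuclei, with 174940 regions, 50 of 50 regions set to 4-fold and 14 of 174406 unchanged regions were past 2-fold. Of regions set to 1.5-fold, 1 of 50 was. Both simulated libraries were drawn at the EtOH rates with counting error only. The simulation therefore cannot show how often a spread between libraries or another mix of nuclei moves a region past 2-fold. The alternatives changed the scaling, the assignment of regions, the overlap, the count minimum, the fold, the promoter window, the clustering and the nuclei used.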

Additional observations from a re-analysis of the deposited data

Results flagged for a closer look

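At 2 genes the ratio of DOX over EtOH had opposite directions in 2 classes of nuclei, each with an interval off 0. For all shared regions of Tgfa it was 0.06 (0.02 to 0.11) in epithelial and -0.49 (-0.80 to -0.17) in immune-like nuclei. The region at +14.3 kb held 172 DOX and 71 EtOH counts of immune-like nuclei, and without it the ratio there was -0.21 (-0.59 to 0.18). Without the region at +57.3 kb the epithelial ratio was -0.02 (-0.07 to 0.02). For all shared regions of Egfr it was -0.18 (-0.37 to -0.00) in luminal progenitor-like nuclei, of which DOX held 59, and 0.20 (0.09 to 0.31) in hormone-sensing luminal-like nuclei. Without the region at +57.3 kb the former was -0.13 (-0.32 to 0.05), and without the region at +48.5 kb the latter was 0.11 (-0.00 to 0.22). Each of these 4 intervals thus held 0 without a single region, chosen after seeing the data as the one whose loss moved the ratio most. With 1 library a group neither difference was tested.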

How the results depend on the processing

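No paired analysis was possible because neither treatment has more than a single library. For all nuclei, 6 regions were higher and 12 lower in DOX; gene bodies alone gave 1 and 6 of 70 (1.43% and 8.57%, against 12.6% and 12.1% of all regions), assignment by the nearest start 15 and 26 of 175 (8.57% and 14.9%, against 12.99% and 13.4% of all regions) and a 3-fold threshold 2 and 4 of 109 (1.83% and 3.67%, against 8.01% and 4.10% of all regions). Setting the median ratio of all regions to 0 gave 15 of 109 regions higher in immune-like nuclei in place of 6, and 68 lower in place of 87. The share of all regions past 2-fold was not computed under that setting, so these 2 counts have no background beside them. Hormone-sensing luminal-like nuclei alone, chosen after seeing the data, gave 4 lower regions of 74 (5.41%) in place of 7 of 108 (6.48%). The other alternatives run for these counts kept them within 1.5 times, and the median ratio lay between -0.40 and -0.22.

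Epithelial nuclei alone turned the ratio from below to above 0 for all regions of Epgn (0.24), Btc (0.064), Tgfa (0.063), Hbegf (0.17), Egfr (0.058), Erbb2 (0.0015) and Erbb4 (0.44), and for the promoters of Ereg (0.21), Epgn (0.18), Btc (0.048), Tgfa (0.091), Hbegf (0.16), Erbb2 (0.16) and Erbb4 (0.14). Assignment by the nearest start turned Ereg (-0.071) and Btc (0.12), Ereg from above to below. Setting the median to 0 turned all regions of Epgn (0.02) and Hbegf (0.046) and the promoters of Areg (0.078) and Ereg (0.11), and nuclei with at least 20000 counts the promoter of Ereg (0.011). The cause was not tested. With 1 library a group the spread between samples is unknown, and regions of few counts, such as Epgn +7.92 kb in immune-like nuclei, are limited by depth.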
